A study of Homo sapiens with 6 samples.

Results

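The 4 human tropomyosin genes, TPM1, TPM2, TPM3 and TPM4, were followed in MDA-MB-231 cells after knockdown of YAP1. They were taken by Ensembl gene identifier from 60612 genes, and they hold 110 of the 229420 transcript rows that were deposited, 38 for TPM1, 10 for TPM2, 27 for TPM3 and 35 for TPM4. TPM4 was picked because its higher level after knockdown was known from an earlier analysis of these libraries, and the other three are its paralogs. The values of all members between the groups are therefore a description. Calls of members in a fit across all genes are given below but are not read as tests of them. MDA-MB-231 is an established line of triple-negative breast cancer, a form without estrogen receptor, progesterone receptor or HER2 amplification. The 3 Sh-NC libraries came from cells with a control short hairpin RNA, labelled wild type, and the 3 Sh-YAP1 libraries from cells with a short hairpin RNA against YAP1. Both were collected on day 3 with no further treatment, and both carried their hairpin stably. One hairpin group per target was sequenced, and the sources used here do not say whether a group was 1 clone or a pool, or whether its libraries came from separate cultures. The spread between libraries may therefore be technical, and adjusted p-values measure only that spread.

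Tropomyosins are coiled-coil proteins that lie end to end along actin filaments. They decide in part which myosins and severing proteins can reach a filament. Each gene makes several forms through alternative promoters and exons. The long forms start at the first exon and are typical of muscle and stress fibres, and short forms start at an internal promoter. TPM1 and TPM2 are the main genes of striated and smooth muscle. TPM3 and TPM4 supply many of the short forms of nonmuscle cells. YAP1 is a transcriptional coactivator that binds DNA through TEAD factors and is itself sensitive to tension in the actin network.

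The genes lie apart in the genome. In GENCODE 29 on GRCh38, TPM1 is at chr15:63042632-63071915 on the plus strand, TPM2 at chr9:35681992-35690121 on the minus strand, TPM3 at chr1:154155304-154194648 on the minus strand and TPM4 at chr19:16067021-16103005 on the plus strand. The annotation lists 34, 12, 23 and 24 transcripts for them in that order. Over the 852 coding bases of the long form, counted back from the last codon, TPM4 shared 78.8% of its bases with TPM2, 74.5% with TPM3 and 74.2% with TPM1. The longest exact run between any coding transcripts of TPM4 and a paralog was 35 bases for TPM2, 33 for TPM3 and 20 for TPM1. The 60 coding bases most alike in all 4 genes, 50 of them identical, are codons 1 to 20. They are shown for 3 of the genes because they mark how close the paralogs come for a short read, with capitals for bases that differ from TPM4:
TPM4 (TPM4-202, chr19:16067625-16067684, plus strand): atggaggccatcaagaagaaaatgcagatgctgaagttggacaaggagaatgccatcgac
TPM2 (TPM2-201, chr9:35689758-35689817, minus strand): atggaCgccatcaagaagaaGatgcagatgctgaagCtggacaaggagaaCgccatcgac
TPM1 (TPM1-201, chr15:63042830-63042889, plus strand): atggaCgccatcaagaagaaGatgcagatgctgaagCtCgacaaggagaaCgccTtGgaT
Each of these windows lies within 1 coding exon. The least alike 60 bases, with 22 identical in all 4 genes, are codons 58 to 77, again with capitals for bases that differ from TPM4:
TPM4 (TPM4-202, chr19:16076104-16076163, plus strand): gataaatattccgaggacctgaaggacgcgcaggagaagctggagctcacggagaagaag
TPM2 (TPM2-201, chr9:35689155-35689214, minus strand): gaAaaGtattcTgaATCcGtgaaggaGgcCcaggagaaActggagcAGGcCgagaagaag
TPM3 (TPM3-201, chr1:154191195-154191254, minus strand): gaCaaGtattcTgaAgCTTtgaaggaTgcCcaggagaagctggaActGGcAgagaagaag
TPM1 (TPM1-201, chr15:63043763-63043822, plus strand): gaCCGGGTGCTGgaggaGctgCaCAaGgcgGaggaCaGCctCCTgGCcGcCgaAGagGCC
TPM3-201 has 1 more codon at its start that was left out of the count. TPM3 differed from TPM4 at 13 of these 60 bases, TPM2 at 14 and TPM1 at 31. The TPM1 transcript shown carries 1 of the alternative exons of that gene, and TPM1 transcripts with another exon here were not compared. The 31 bases, the 74.2% and the choice of this window therefore hold for TPM1-201. They may set exons side by side that do not correspond. TPM4 can be told from the paralog transcripts shown by sequence in this region.

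Promoter sequences of the family were compared because YAP1 acts through DNA and because TPM genes are classical targets of serum response factor, SRF. The RefSeq table on GRCh38.p14 gave 8 promoter windows for the 4 genes, each from 250 bases before a transcript start to 50 after it. Neither GGAATG nor its reverse complement CATTCC, the core bound by TEAD factors, occurred in any of the 8, against 14.0% of all 35116 windows searched on both strands. A CArG box, the element bound by SRF, occurred in 1 of the 8, against 1.29% of all windows. The windows of TPM1 and TPM3 lie downstream of the first codon of the long forms shown above. The promoters of these long forms were therefore not searched for either motif, and the presence of the box cannot be compared between TPM4 and those genes. The 2 windows of TPM2 overlap, and 8 windows are too few to set the family apart from 14.0%. Sequence outside the windows was not searched, so the absence of the TEAD core holds for these windows alone. The box lies 173 bases before the first RefSeq start of TPM4, at chr19:16067365-16067374, and is shown in capitals within 90 bases of the plus strand, chr19:16067325-16067414:
TPM4 promoter: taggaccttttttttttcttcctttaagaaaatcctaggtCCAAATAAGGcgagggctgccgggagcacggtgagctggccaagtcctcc
The stretch overlaps no annotated exon of TPM4 and lies in an intron of 1 longer transcript. It precedes the start of the long form. A motif match describes the letters only, and binding was not measured.

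The labels held up in the targeted gene. YAP1 was at 28.1, 26.2 and 22.9 FPKM in the Sh-NC libraries and at 3.35, 2.67 and 2.58 FPKM in the Sh-YAP1 libraries. FPKM divides the fragments of a transcript by its length and by the library's mapped total, so levels are per length and genes can be set side by side. Its paralog WWTR1, which encodes TAZ, was still expressed, at 41.9 to 42.5 FPKM in Sh-NC against 46.7 to 52.1 FPKM in Sh-YAP1. Of the 9 markers listed for the cell line, VIM was the most abundant, at a mean of 2045 FPKM in Sh-NC against 1947 FPKM in Sh-YAP1. In the same order, KRT8 was at 152 against 133 FPKM, KRT18 at 124 against 105.5 FPKM and CD44 at 135 against 121 FPKM. ERBB2, which encodes HER2, was at 15.9 against 14.6 FPKM, and EPCAM at 2.94 against 2.67 FPKM. These 6 means were all lower in Sh-YAP1, KRT18 alone without overlap, beside 29.4% of all genes tested in either direction. ESR1, PGR and CDH1 stayed under 0.5 FPKM. Among 14 troponin and striated muscle genes, TNNT1 was at a mean of 123 FPKM in Sh-NC against 110.0 FPKM in Sh-YAP1, while 8 of the 14, including MYOD1 and MYOG, were listed at 0 in every library. This list summed to between 122.6 and 128.2 FPKM in Sh-NC against 110.5 to 111.2 FPKM in Sh-YAP1, nearly all of it TNNT1, and its part in the tropomyosin values was not tested. Of 6 smooth muscle markers only SMTN reached 0.5 FPKM, and MYH11 averaged 0.11 FPKM. The total over all rows of a library was between 467493 and 475116 FPKM. The values carry no read counts, so depth is unknown. In bulk RNA, a change in the share of cells that express a gene and a change in RNA per cell cannot be told apart.

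TPM4 was higher in every Sh-YAP1 library. This gene encodes a tropomyosin of nonmuscle cells with both a long and a short form. The sum of its rows gave 70.4, 86.4 and 97.7 FPKM for Sh-NC replicates 1 to 3. The Sh-YAP1 replicates gave 331, 242 and 211 FPKM in the same order. The lowest Sh-YAP1 library stood at more than 2 times the highest Sh-NC library. The mean was 84.8 ± 13.7 FPKM in Sh-NC against 262 ± 61.9 FPKM after knockdown (SD, n = 3 each), a ratio of means of 3.08. On the scale of log2(FPKM + 1), used for every log2 difference given here, the groups differed by 1.60 (SE 0.19). TPM4 moved from place 753 to place 181 among all genes by mean FPKM. In the limma fit, 499 of 14770 genes, or 3.38%, had an adjusted p under 0.05 (Benjamini-Hochberg), and 1.75% had one and were higher in Sh-YAP1. TPM4 was the 1 member of 4 among these. Since TPM4 was picked from this comparison, nothing is read from that. The call was lost in 5 of 17 alternative fits, namely without Sh-NC replicate 1, Sh-NC replicate 2 or Sh-YAP1 replicate 2, with the replicate number as a block, and when only rows above 0 in all libraries were summed. TPM4 stayed higher in Sh-YAP1 in all 17.

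**Figure D1:**
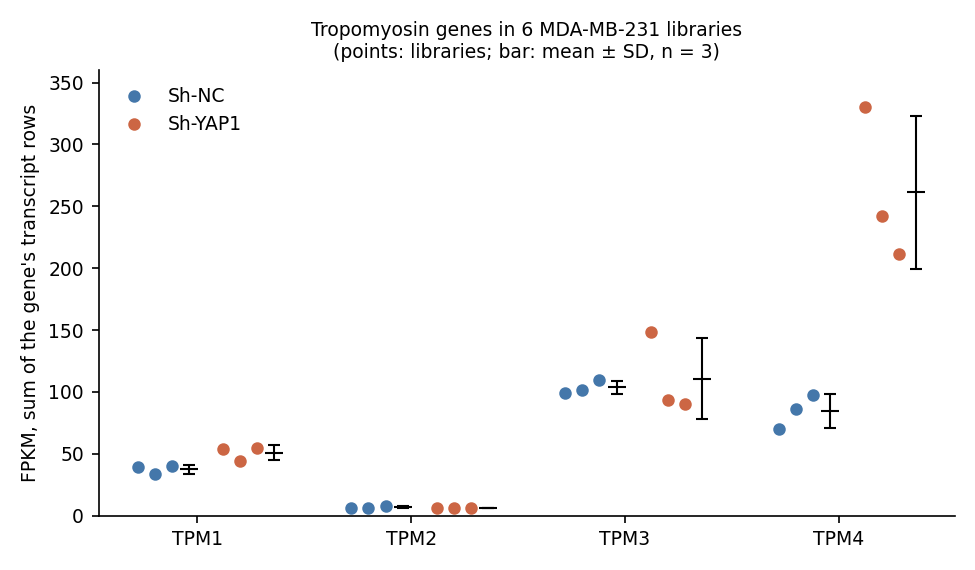
Summed FPKM of each tropomyosin gene in the 6 libraries (y axis, linear from 0; blue Sh-NC, orange Sh-YAP1; points are libraries and the black bar is the mean ± SD, n = 3). TPM4 is at 211 to 331 FPKM in Sh-YAP1 against 70.4 to 97.7 FPKM in Sh-NC, TPM1 is slightly higher without overlap, and the groups overlap for TPM2 and TPM3.

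No paralog was lower by an amount near the gain of TPM4. TPM3, the other main gene of short nonmuscle forms, was at 99.3, 102 and 109.9 FPKM in the Sh-NC libraries. It was at 148, 93.8 and 90.2 FPKM in the Sh-YAP1 libraries. Sh-YAP1 replicate 1 lay above all Sh-NC libraries and the other two lay below them. The log2 difference of TPM3 was 0.06 (SE 0.19), and without Sh-YAP1 replicate 1 it was -0.17.

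TPM1, the gene with the largest set of muscle and nonmuscle forms, was at 39.3, 33.5 and 39.9 FPKM in Sh-NC and at 54.0, 43.8 and 54.4 FPKM in Sh-YAP1. Its groups did not overlap, with Sh-YAP1 the higher. The log2 difference was 0.42 (SE 0.12), a ratio of means of 1.35. It did not hold when only rows above 0 in all libraries were summed, at -0.15 (SE 0.36). TPM2, known from muscle and fibroblasts, was the weakest member at 6.19, 6.49 and 7.52 FPKM in Sh-NC and 6.23, 5.93 and 6.03 FPKM in Sh-YAP1. Its groups overlapped narrowly, since Sh-YAP1 replicate 1 lay just above Sh-NC replicate 1, and its log2 difference was -0.13 (SE 0.09). TPM1, TPM2 and TPM3 were not called in the limma fit, beside 3.38% of all genes, or in any of 17 alternatives. TPM1 and TPM4, 2 of 4 members, were higher without overlap, beside 14.6% of all genes tested in this direction and 29.4% in either direction.

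The family total was higher after knockdown and its make-up differed. The sum of the 4 genes was 215, 228 and 255 FPKM in Sh-NC and 539, 386 and 362 FPKM in Sh-YAP1, a log2 difference of 0.86 (SE 0.19). The 3 paralogs without TPM4 summed to 148 ± 8.21 FPKM in Sh-NC against 167 ± 35.6 FPKM after knockdown (SD, n = 3 each). The mean of TPM4 was higher by 177 FPKM and the sum of its paralogs by 19.5 FPKM, so the gain of TPM4 was not offset within the family. The difference of the paralogs rested on Sh-YAP1 replicate 1, since it was -0.98 FPKM without that library, and it was 31.5 FPKM without Sh-YAP1 replicate 2. TPM4 made up 32.7%, 37.8% and 38.3% of the total in Sh-NC and 61.3%, 62.8% and 58.4% in Sh-YAP1. The share of TPM3 went from 44.6 ± 1.53% to 25.6 ± 1.69%, although its own level did not separate the groups. The share of TPM1 went from 16.2 ± 1.85% to 12.1 ± 2.59% and that of TPM2 from 2.89 ± 0.05% to 1.45 ± 0.27% (SD, n = 3 each). Summed only over rows above 0 in all libraries, the family total differed by 0.46 on the log2 scale and the TPM4 share by 14.8 percentage points, against 24.6 points from all rows.

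The order of levels changed at the top. In Sh-NC it was TPM3, TPM4, TPM1 and TPM2, and in Sh-YAP1 it was TPM4, TPM3, TPM1 and TPM2. No neighbours in either order overlapped in their range over 3 libraries, although TPM3 and TPM4 came close in Sh-NC, with 99.3 FPKM as the lowest TPM3 value and 97.7 FPKM as the highest TPM4 value. Within libraries, the ratio of TPM4 to TPM3 was 0.71, 0.85 and 0.89 in Sh-NC and 2.23, 2.58 and 2.34 in Sh-YAP1. This ratio varied less between Sh-YAP1 libraries than TPM4 itself, and replicate 1 was highest for both genes.

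The gain of TPM4 was not spread evenly over its transcripts. The rows carry a gene identifier and no transcript name, so they are numbered here within each gene by their mean over the 6 libraries. Of 35 rows, 10 were listed at 0 in all libraries and 19 had a mean of at least 0.1 FPKM and entered the fit across rows. Of these 19, 14 had a higher mean in Sh-YAP1 and 5 a lower one. Rows without overlap between groups numbered 4, each higher in Sh-YAP1, beside 6.34% of all 77655 rows tested that were separate in this direction. No TPM4 row was called in the limma fit across rows, beside 0.0515% of all rows.

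The leading row of TPM4 differed between the groups and among the Sh-YAP1 libraries. Row 2 led in all 3 Sh-NC libraries, at 60.1, 67.0 and 45.6 FPKM, or 85.3%, 77.6% and 46.6% of TPM4. In Sh-YAP1 it was at 96.2, 1.81 and 1.13 FPKM, so it was highest of all in replicate 1 and nearly absent in the other two. Row 1 was at 0.45, 0 and 41.1 FPKM in Sh-NC and at 184, 0 and 73.9 FPKM in Sh-YAP1. Both groups thus held a library where row 1 was listed at 0 and a library where it was strong. Row 3 was at 0.79, 0.76 and 0.90 FPKM in Sh-NC and at 0.55, 133 and 56.6 FPKM in Sh-YAP1. Sh-YAP1 replicate 1, in which row 3 stayed low, was the library with the most of rows 1 and 2. Row 5 was at 1.04, 7.39 and 1.10 FPKM in Sh-NC and at 0, 63.7 and 0 FPKM in Sh-YAP1, where replicate 2 alone carried it. Row 6 was at 0.56, 1.57 and 0 FPKM in Sh-NC and at 4.72, 2.74 and 43.4 FPKM in Sh-YAP1, without overlap but with most of its signal in replicate 3.

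Row 4 had the highest mean over the 6 libraries among the 4 TPM4 rows that were higher without overlap. It was at 2.09, 4.47 and 2.54 FPKM in Sh-NC and at 14.4, 29.8 and 26.6 FPKM in Sh-YAP1. Every Sh-YAP1 library was over 3 times the highest Sh-NC library, and the log2 difference was 2.59 (SE 0.35). Row 9 moved in the same direction at a lower level, from 0.35, 0.95 and 0.40 FPKM to 1.05, 4.63 and 3.10 FPKM. Row 7 was at 1.44, 0.05 and 0 FPKM in Sh-NC and at 15.0, 0 and 0.22 FPKM in Sh-YAP1. Row 8 was at 0.24, 0.41 and 0.17 FPKM in Sh-NC and at 10.8, 0.11 and 0.17 FPKM in Sh-YAP1. Rows 7 and 8 were therefore raised in Sh-YAP1 replicate 1 alone. Row 10 was at 0.46, 0.45 and 2.51 FPKM in Sh-NC and at 2.18, 2.00 and 2.84 FPKM in Sh-YAP1, with overlap. The remaining rows had means of at most 0.64 FPKM, and row 11 among them was the 1 other row without overlap.

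Leaving out row 1, whose group means differed most, gave a log2 difference of 1.27 (SE 0.31) for TPM4. The row was picked by that difference, so a smaller value without it follows largely from the choice. Only 11 rows of TPM4 were above 0 in all 6 libraries. They summed to 65.6 FPKM in Sh-NC against 131 FPKM in Sh-YAP1, and the log2 difference was 0.95. The size of the gain therefore depended on rows that were absent from at least 1 library, and its direction did not.

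**Figure D2:**
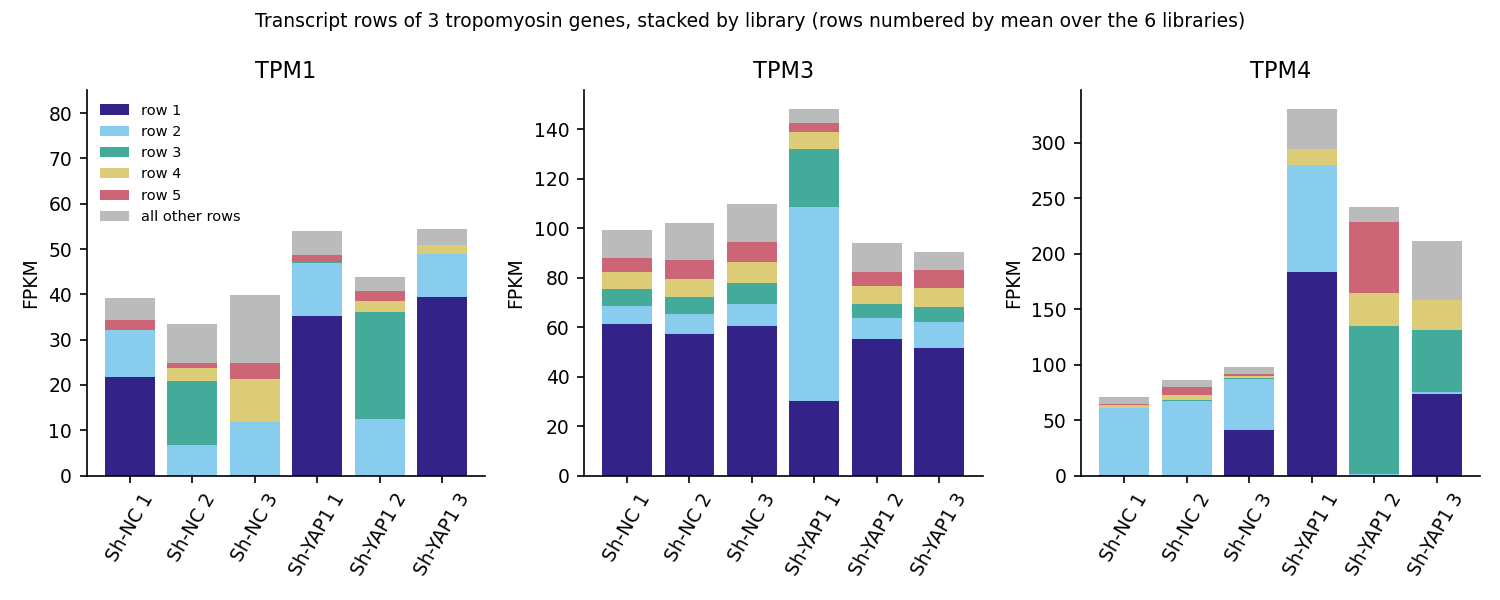
FPKM of the transcript rows of TPM1, TPM3 and TPM4, stacked by library (y axis, linear from 0, with its own scale per gene; colours are the 5 rows with the highest mean, grey is all other rows). Row 2 leads TPM4 in the Sh-NC libraries, just ahead of row 1 in replicate 3, while the Sh-YAP1 libraries are led by row 1 in replicates 1 and 3 and by row 3 in replicate 2.

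TPM1 showed the same exchange of rows within a group. Row 1 was at 21.8, 0 and 0.15 FPKM in Sh-NC and at 35.3, 0 and 39.4 FPKM in Sh-YAP1. Row 3 was at 0, 14.1 and 0 FPKM in Sh-NC and at 0.24, 23.5 and 0.02 FPKM in Sh-YAP1. Row 3 was strong in exactly the replicate 2 libraries of both groups, where row 1 was listed at 0. Row 2 was the even one, at 10.4, 6.83 and 11.6 FPKM in Sh-NC and 11.6, 12.5 and 9.53 FPKM in Sh-YAP1. Row 4 was at 0.04, 2.80 and 9.45 FPKM in Sh-NC and 0.09, 2.45 and 2.03 FPKM in Sh-YAP1. Row 6 was at 0, 5.72 and 2.39 FPKM in Sh-NC and was listed at 0 in every Sh-YAP1 library. Row 7 stood out in Sh-NC replicate 3, at 5.50 FPKM, and was between 0.32 and 0.61 FPKM in the other 5 libraries. Row 5 was between 1.20 and 3.58 FPKM in Sh-NC and between 0 and 2.20 FPKM in Sh-YAP1. Of 19 TPM1 rows tested, 7 had a higher mean in Sh-YAP1 and 12 a lower one, although the gene total was higher. The weak row 14 was the 1 row without overlap, lower in Sh-YAP1, beside 6.8% of all rows tested in this direction. Row 1 had the largest difference between group means and was picked for that, so a lower value without it follows largely from the choice. A sum without row 1 gave a log2 difference of -0.29 (SE 0.57). The higher total of Sh-YAP1 replicate 2 was nevertheless held by rows 2 and 3 and not by row 1. Summed over the 9 rows above 0 in all libraries, the log2 difference was -0.15 (SE 0.36). Both values lie within 1 SE of 0.

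TPM3 was led by 1 row in all libraries except 1. Row 1 was at 61.0, 57.1 and 60.6 FPKM in Sh-NC and at 30.0, 55.3 and 51.5 FPKM in Sh-YAP1. It was lower in Sh-YAP1 without overlap, by little in replicates 2 and 3 and most in replicate 1. Row 2 was at 7.41, 8.21 and 8.66 FPKM in Sh-NC and at 78.5, 8.25 and 10.5 FPKM in Sh-YAP1. Row 3 was at 6.96, 6.73 and 8.43 FPKM in Sh-NC and at 23.4, 5.69 and 6.18 FPKM in Sh-YAP1. The excess of TPM3 in Sh-YAP1 replicate 1 was therefore in rows 2 and 3, and without row 2 the log2 difference of TPM3 was -0.29. Row 4 varied least, between 6.70 and 8.83 FPKM in all 6 libraries. Row 5 was between 6 and 7.75 FPKM in Sh-NC and between 3.44 and 7.24 FPKM in Sh-YAP1. Row 6 was between 3.81 and 4.54 FPKM in Sh-NC, and in Sh-YAP1 it was at 0, 3.31 and 4.74 FPKM. Rows 7 to 9 stayed at or below 3.51 FPKM in every library. Of 15 TPM3 rows tested, 4 had a higher mean in Sh-YAP1 and 11 a lower one, 2 of the latter (row 1 and the weak row 15) without overlap, beside 6.8% of all rows tested that were separate and lower.

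TPM2 had 9 rows tested, 4 with a higher and 5 with a lower mean in Sh-YAP1, and none without overlap, beside 13.1% of all rows tested in either direction. Its row 1 was at 2.41, 2.35 and 3.04 FPKM in Sh-NC and at 2.40, 2.97 and 3.62 FPKM in Sh-YAP1. Row 2 was at 1.39, 2.43 and 0.96 FPKM in Sh-NC and at 2.05, 1.27 and 0.88 FPKM in Sh-YAP1. Neither row parted the groups.

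The exchange of leading rows can be set beside other genes. Of 5617 genes that averaged 10 FPKM or more and had at least 2 rows tested, 52.8% had 1 row that led in all 6 libraries and 16.1% had 3 or more different leading rows. TPM4 and TPM1 each had 3 leading rows and TPM3 had 2. TPM2 lies below that level. How fragments were divided among similar transcripts was not tested, and rows were not matched to long or short forms.

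Of 3 listed pseudogenes of TPM4, 2 were detected and both were higher after knockdown, 1 of them among the genes called. TPM4P2, on chromosome 3, and TPM4P3, on chromosome 8, are listed in RefSeq as pseudogenes of 2207 and 2158 bases, and fragments may be shared between them and TPM4. TPM4P2 was at 3.17, 5.14 and 4.27 FPKM in Sh-NC and at 9.27, 8.36 and 10.6 FPKM in Sh-YAP1. TPM4P3 was at 0.50, 1.5 and 1.11 FPKM in Sh-NC and at 2.09, 2.38 and 3.03 FPKM in Sh-YAP1. Both were higher in Sh-YAP1 without overlap, beside 14.6% of all genes tested, with ratios of means of 2.24 and 2.41, and TPM4P1 was listed at 0 throughout. TPM4P2 was among the 499 genes called, and this call was lost in 9 of 17 alternative fits, including each fit that left out a library. TPM4P3 was not called. Their order over the Sh-YAP1 libraries differed from that of TPM4, since replicate 3 was highest for both pseudogenes and lowest for TPM4. How alike their sequences are to TPM4 was not computed and the sharing of fragments was not tested, so their values are not taken as separate from those of TPM4.

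The 3 pseudogenes of TPM3 above 0.5 FPKM on average overlapped between the groups. TPM3P5 was at 2.77 to 3.64 FPKM in Sh-NC against 3.29 to 3.85 FPKM in Sh-YAP1. TPM3P9 was at 2.98 to 3.99 FPKM in Sh-NC against 2.23 to 3.30 FPKM in Sh-YAP1. TPM3P6 was between 0.81 and 1.29 FPKM over all libraries, and TPM3P1 stayed at or below 0.15 FPKM. TPM3P8 was lower without overlap at values near 0, with 0.06, 0.13 and 0.15 FPKM in Sh-NC and 0.01, 0 and 0.05 FPKM in Sh-YAP1. Genes that overlap the members on the other strand were weak. AC008894.3, which overlaps TPM4, was between 0.19 and 0.32 FPKM, and TPM1-AS, the antisense gene of TPM1, was between 0.03 and 0.74 FPKM. The sources used here do not say whether counting used strand, so reads of these overlapping genes may be mixed.

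**Figure D3:**
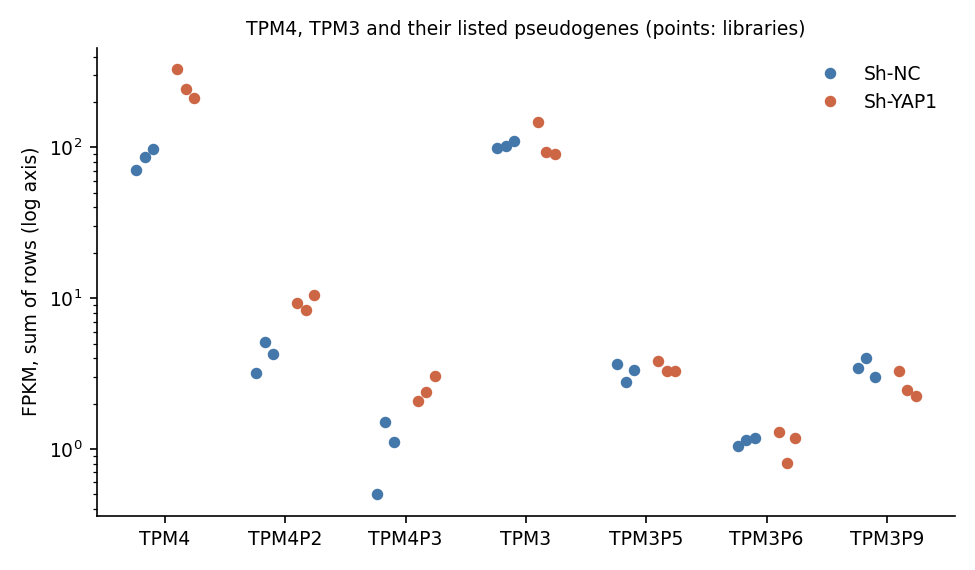
Summed FPKM (y axis, log scale) of TPM4, TPM3 and their pseudogenes that reached 0.5 FPKM on average (points are libraries; blue Sh-NC, orange Sh-YAP1). TPM4P2 and TPM4P3 are higher in all Sh-YAP1 libraries, as TPM4 is, and the 3 plotted for TPM3 overlap between the groups.

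Other genes of the actin filament were called about as often as all genes. Of 61 genes in 4 lists (thin filament partners, nonmuscle myosin II and its regulators, nucleation, turnover and crosslinking, and SRF with its cofactors), 54 were tested and 2 were called by limma after Benjamini-Hochberg adjustment, against 3.38% of all genes. Over these 54 genes the median log2 difference was -0.04, against 0.00 over all genes, with 19 higher and 35 lower. Groups without overlap were seen for 8 higher and 11 lower genes, beside 29.4% of all genes tested in either direction. LIMK1, the kinase that inactivates cofilin, was at 18.2, 18.1 and 17.5 FPKM in Sh-NC and rose to 28.7, 30.9 and 23.9 FPKM in Sh-YAP1, a log2 difference of 0.60 (SE 0.10, adjusted p = 0.0354 from limma). MYH9, the heavy chain of the main nonmuscle myosin II, fell from 175, 176 and 164 FPKM to 129.9, 133 and 132 FPKM, a log2 difference of -0.38 (SE 0.06, adjusted p = 0.0289 from limma). Their groups did not overlap. The call was lost in 8 of 17 alternatives for LIMK1 and in 9 for MYH9, and over the alternatives the adjusted p from limma ran from 0.0321 to 0.131 for LIMK1 and from 0.0249 to 0.147 for MYH9.

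Of 10 thin filament partners tested, none was called, beside 3.38% of all genes, 3 had a positive and 7 a negative log2 difference. ACTB, the most abundant, was at a mean of 1624 FPKM in Sh-NC against 1538 FPKM in Sh-YAP1. ACTG1, the other cytoplasmic actin and the largest difference of this list, was at a mean of 978 FPKM in Sh-NC against 734 FPKM in Sh-YAP1 without overlap, a log2 difference of -0.41 (SE 0.10) that was not called (adjusted p = 0.0843 from limma). Caldesmon, CALD1, which binds tropomyosin and blocks myosin, had a log2 difference of 0.18 (SE 0.08), and TMOD3, the tropomodulin that caps the pointed end, of -0.09 (SE 0.08). In the myosin list of 11 tested genes the most abundant was MYL6, a light chain, with a log2 difference of -0.08 (SE 0.22). PFN1, the actin monomer binding protein that led the list of 30 turnover genes by level, had a log2 difference of 0.19 (SE 0.29). SRF itself was at a mean of 18.4 FPKM in Sh-NC against 17.9 FPKM in Sh-YAP1, its cofactors MRTFA and MRTFB had log2 differences of 0.16 (SE 0.08) and 0.12 (SE 0.17), and MYOCD was listed at 0.

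None of 15 tested splicing regulators with known tropomyosin or related exons was called, beside 3.38% of all genes. Groups without overlap were seen for 3 higher and 3 lower genes of the 15, beside 29.4% of all genes. PTBP1, which represses muscle exons of TPM1 and TPM2, was at a mean of 63.2 FPKM in Sh-NC against 76.4 FPKM in Sh-YAP1, a log2 difference of 0.27 (SE 0.08). The largest differences of the list were those of MBNL3, at 0.41 (SE 0.09), and MBNL2, at -0.39 (SE 0.13), both without overlap. HNRNPF, the most abundant of the list, had a log2 difference of -0.12 (SE 0.07). The epithelial splicing factors ESRP1 and ESRP2 were under 0.5 FPKM on average in both groups.

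**Figure D4:**
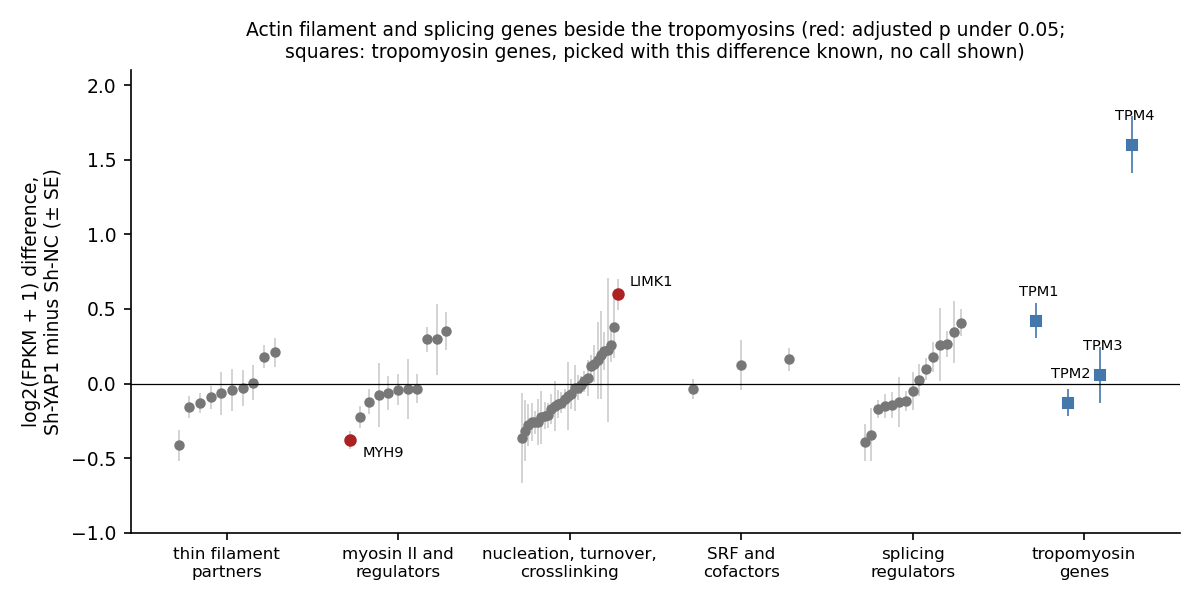
Difference of mean log2(FPKM + 1), Sh-YAP1 minus Sh-NC, for each tested gene of 5 lists and for the 4 tropomyosin genes (y axis; bars are the standard error of the fit; red marks an adjusted p under 0.05 among list genes; squares are the tropomyosin genes, picked with this difference known and shown without a call). TPM4 at 1.60 lies above every list gene, of which LIMK1 at 0.60 is the highest.

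The genes most like TPM4 over the 6 libraries were sought among 6225 genes that averaged 10 FPKM or more. By Pearson correlation of log2(FPKM + 1) they were NORAD (0.997), ERO1A (0.997), KAT2B (0.995), YPEL5 (0.994) and LARS1 (0.993). NORAD, a long noncoding RNA, went from a mean of 69.1 to 88.9 FPKM, and ERO1A, an oxidase of the endoplasmic reticulum, from 20.1 to 34.8 FPKM. Their changes were smaller than that of TPM4, and the measure follows the shape over libraries and not the size. For TPM1 the nearest genes were WAC (0.995), GPAT3 (0.987), P4HB (0.982), MCTP1 (0.980) and TRMT6 (0.979). These 6 points fall into 2 groups of 3, so the correlations hold the group difference itself and are a description only.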

How the data were processed

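The authors deposited FPKM values, 1 per transcript row and library, with a gene identifier and 2 decimals. The submitters' processing notes name HISAT2 2.0, Bowtie 0.12.2 and hg19 without saying what each did. The quantification tool, the annotation and any filter are not given in the sources used here. No coordinates are in the deposited values, and positions come from GENCODE 29 or RefSeq on GRCh38. Rows were summed per gene. Values were analysed as log2(FPKM + 1), which understates changes of weak genes. Genes averaging 0.5 FPKM or more and rows averaging 0.1 FPKM or more were compared with limma 3.58.1 in R 4.3.3 (mean-variance trend, condition as the only factor, Benjamini-Hochberg over all features), and the code was tested on simulated data. Standard errors of member genes come from that fit or its alternatives. Those of the family sum and of sums without a row come from the 6 values. Other steps used Python 3.11.15. Every row with a mean of at least 1 FPKM was named, as was every cell line marker. From each other gene list the called genes and the most abundant one were named. ACTG1, CALD1, TMOD3, PTBP1, MBNL2, MBNL3, MRTFA, MRTFB and the absent markers were chosen after their values were seen. Members, lists and tests were chosen with earlier results of these data known. Same-numbered libraries deviated together at -0.03, 0.06 and 0.00 across genes, so the replicate number was not used as a block. One gene of the actin filament lists and 1 coding sequence are not reported here.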

Additional observations from a re-analysis of the deposited data

How the results depend on the processing

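The log2 difference of TPM4 was between 1.42 and 1.74 with each library left out in turn, 0.95 from rows above 0 in all libraries and 1.27 without its most changed row. TPM2 stayed between -0.18 and -0.05 over all its alternatives. From rows above 0 in all libraries TPM1 was at -0.15 (SE 0.36). Without the most changed row of each gene, TPM1 was at -0.29 (SE 0.57) and TPM3 at -0.29 (SE 0.10). Both TPM1 values lie within 1 SE of 0, so no direction is read from them. The most changed rows were picked by the group difference itself, so a shift without them follows largely from that choice. From rows above 0 in all libraries, the log2 difference of the family sum was 0.46 and the TPM4 share differed by 14.8 percentage points, against 24.6 from all rows. Genes called by limma numbered 499, 230 from rows above 0 in all libraries, 232 with no filter and 80 to 170 with a library left out. A replicate block left 1 gene called, YAP1, with 2779 at an unadjusted p under 0.05, and 0 rows, with 3553 at an unadjusted p under 0.05. Rows called numbered 40, and 75 and 73 with pseudocounts of 0.1 and 0.01, 74 without the trend and 85 at a mean of at least 1 FPKM. Of the actin filament lists, 2 genes were called, 1 from rows above 0 in all libraries, 1 without the trend, 0 with the block, 0 with no filter (limma, with 8 and 10 at an unadjusted p under 0.05) and 0 to 1 with a library left out. The causes were not tested. Without read counts, depth sets no stated limit on the weak rows.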
